A study of Mus musculus with 123 samples.

Results

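RGS proteins are the brakes of G protein signalling. A receptor that binds its ligand loads GTP onto a G alpha subunit, and the RGS domain speeds the hydrolysis of that GTP, so that the subunit rejoins its beta and gamma partners and the signal ends. In dorsal root ganglia (DRG), the clusters of sensory nerve cell bodies beside the spinal cord, opioid, adenosine, cannabinoid and neuropeptide Y receptors signal through such G proteins, and RGS proteins are known to set how strong and how long these signals are. The 9 genes described here were chosen by symbol from the 24134 genes of the tables, with earlier results of these data known. They belong to 4 subfamilies: Rgs2, Rgs3, Rgs4 and Rgs8 to R4, Rgs6 and Rgs7 to R7, Rgs10 and Rgs12 to R12, and Rgs17 to RZ.

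The study cut the right sciatic nerve of 2-month-old mice (sciatic nerve transection, SNT) and picked single neurons by hand from the lumbar DRGs of the cut side and of the uncut left side of the same mice, which is the control side. Day-3 cells and the pooled neurons came from F1 mice of a CAST/Eij father and a C57BL/6 mother with no sex in the labels, day-7 cells came from C57BL/6 mice of both sexes, and all mice carried both an operated and an unoperated side. After the authors had left out 11 outlier cells of day 3, there were 41 SNT and 18 control cells at day 3 and 33 SNT and 14 control cells at day 7. Each pooled library, 3 per side at day 3, is a part of 1 lysate of many neurons, so its spread is technical, and the labels tie no cell to an animal, so each side and day of cells is 1 sample. Some neurons of these ganglia send no axon into the sciatic nerve, so the SNT side holds both cut and uncut neurons.

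Levels are counts scaled to 1000000 per library (CPM). Control pooled libraries held 563462 to 839135 counts each and SNT pooled libraries 1148849 to 2003817. Kept cells held a median of 862619 (control) and 1323932 (SNT) counts at day 3 and 738947 (control) and 575179 (SNT) at day 7. Neuron markers summed to at least 5923 CPM in every kept cell. Atf3, a transcription factor induced by axon injury, stood at 8.25, 21.5 and 10.7 CPM in control and 1619, 1372 and 1409 CPM in SNT pooled libraries, which bears on the side names because column names and sample identifiers of the pooled libraries pair the sides in opposite ways. The names were used, and under the identifiers every pooled difference below would change sign. Summed glial markers lay between 11320 and 13930 CPM in control and between 4771 and 5512 CPM in SNT pooled libraries, with 6 of 10 lower, 1 higher and none at 0. Their part in the pooled results was not tested.

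In pooled neurons 3 days after SNT, 4 of the 9 RGS genes fell, 1 rose, and 4 did not pass the test. The log2 change was largest for Rgs10 (-2.84), followed by Rgs3 (-2.19), Rgs7 (-1.99) and Rgs4 (-1.18). Rgs12 rose from no count in any control library to a mean of 20.5 ± 10.7 CPM (SD, n = 3). Rgs2, Rgs6, Rgs8 and Rgs17 had lower means on the SNT side but did not pass. A gene was called when edgeR's quasi-likelihood test gave a Benjamini-Hochberg adjusted p below 0.05 over the 13509 genes tested and the log2 change was beyond 1 in either direction. By this rule 7.1% of all genes were lower and 8.83% higher. The median log2 change was -1.18 over the 9 genes, also with Rgs12 at its lower bound, and 0.02 over all genes tested. The 9 genes were chosen with earlier results of these data known, so their median does not speak for the whole family. In bulk samples, fewer cells of a type and less RNA per cell cannot be told apart.

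**Figure D1:**
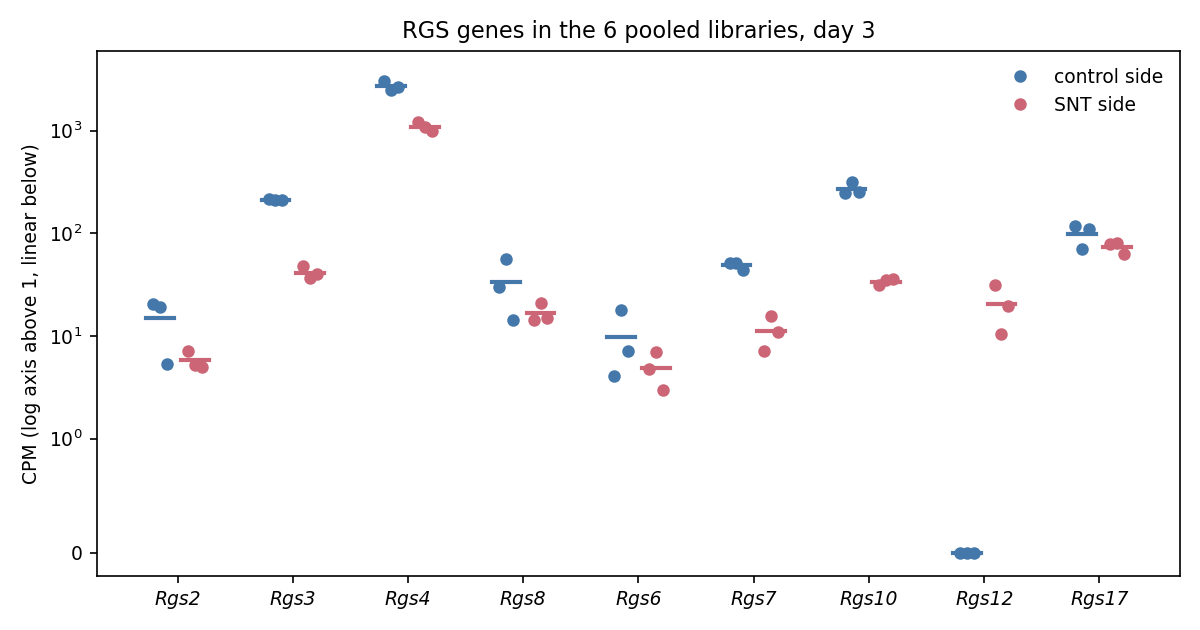
Level of each RGS gene in the 3 control (blue) and 3 SNT (red) pooled libraries of day 3. The y axis is in CPM, logarithmic above 1 and linear below, points are libraries and bars are means. Rgs3, Rgs4, Rgs7 and Rgs10 lie lower on the SNT side without overlap, and Rgs12 is at 0 in all 3 control libraries and between 10.4 and 31.7 CPM in the SNT libraries.

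Rgs12, of the R12 subfamily, is a large protein that joins its RGS domain to several interaction domains and a second site that binds G alpha. The gene spans chr5:34949445-35039644 on the plus strand of GRCm38. No control library held a count. The SNT libraries 1, 2 and 3 stood at 31.7, 10.4 and 19.5 CPM, from 53, 12 and 39 counts. The sides did not overlap, as for 38% of all genes tested. Set against a limit of 3 counts over the control side (1.41 CPM), Rgs12 was at least 14.6-fold higher after SNT, with an edgeR adjusted p of 1.14e-06. One antisense gene, Gm43791, overlaps Rgs12 exons. No source says that reads were counted by strand, so reads of the pair cannot be told apart.

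Single neurons showed the same direction at both days. At day 3, Rgs12 ranged from 0 to 6.57 CPM (median 0) in the 18 control cells and from 0 to 162 CPM (median 19.6) in the 41 SNT cells. Of the SNT cells, 32 lay above every control cell. Rgs12 exceeded 10 CPM in 29 of 41 SNT cells (70.7%, exact binomial 95% interval 54.5 to 83.9) and in 0 of 18 control cells, which allows a share of up to 16.7% by the limit of 3 counts and 18.5% by the exact interval. These intervals and limits cover counting error only. SNT cells were the deeper ones, and after each cell was thinned to 200000 counts the shares were 25 of 41 (61.0%) and 0 of 18. At day 7 the control cells ranged from 0 to 21.8 CPM (median 2.26) and the SNT cells from 0 to 59 CPM (median 9.60), with 15 of 33 SNT (45.5%) and 3 of 14 control cells (21.4%) above 10 CPM, shares whose exact intervals (28.1 to 63.6 and 4.66 to 50.8) overlap. After thinning these were 12 of 33 (36.4%) and 1 of 14 (7.1%). The SNT cell with the most Rgs12 at day 7 had Atf3 at 12.8 CPM, and that of day 3 had Atf3 at 1948 CPM. The log2 ratio of mean CPM + 1 was 3.5 at day 3 and 1.60 at day 7. With the 11 outlier cells included (7 SNT, 4 control), it was 2.55 at day 3, and 1 of these control cells stood at 26.2 CPM. Strain, read length, sexes and marker levels of neuron classes differ between the days, so a difference between days cannot be told apart from these. Summed markers of large myelinated neurons had medians of 233 (control) and 230 CPM (SNT) at day 3. At day 7 these were 3523 and 3335 CPM. Summed markers of nonpeptidergic nociceptors, small pain-sensing neurons, had medians of 1196 and 1233 CPM at day 3 and 73 and 76 CPM at day 7.

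RefSeq lists 2 starts for Rgs12, and the window of the second differs from the first in the letters bound by AP-1, the dimer family that holds Jun and Atf3. The windows run from 250 bases before to 50 after each start (GRCm38.p6, strand of the gene). Capitals mark AP-1 letters (TGACTCA or its reverse complement TGAGTCA) and the core letters of the cAMP response element (TGACG or CGTCA). Both strands were searched, and the core letters lie also within the full element TGACGTCA. The first window, chr5:34949198-34949497 (+), holds neither. The second, chr5:34998828-34999127 (+), holds TGACTCA from 22 bases and TGACG from 82 bases before the start.
Rgs12 first start: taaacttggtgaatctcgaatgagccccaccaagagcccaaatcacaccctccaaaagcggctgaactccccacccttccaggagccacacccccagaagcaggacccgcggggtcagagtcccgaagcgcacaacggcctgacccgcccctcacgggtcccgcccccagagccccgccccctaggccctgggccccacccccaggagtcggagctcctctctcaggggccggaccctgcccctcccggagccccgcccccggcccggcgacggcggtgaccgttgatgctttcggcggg
Rgs12 second start: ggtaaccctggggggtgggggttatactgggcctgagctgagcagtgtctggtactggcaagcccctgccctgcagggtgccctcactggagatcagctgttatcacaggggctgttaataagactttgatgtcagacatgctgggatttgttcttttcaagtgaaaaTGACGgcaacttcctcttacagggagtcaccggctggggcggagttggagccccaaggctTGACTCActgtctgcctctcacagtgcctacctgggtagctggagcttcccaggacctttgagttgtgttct
Of 32851 mouse promoter windows of this length, 5.20% hold AP-1 letters, 20.8% the core letters and 1.79% the full element. Among the 13 windows of the 9 genes, 2 hold AP-1 letters, those of Rgs12 and Rgs17, and none holds the full element. A match is a description of letters, not a site of binding, and the counts do not say which start was used.

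Rgs10, the other R12 gene, encodes a small protein that is little more than an RGS domain and is known for dampening inflammatory signalling in microglia. It was the second most abundant of the 9 per length on the control side. Control libraries 1, 2 and 3 stood at 248, 313 and 254 CPM and SNT libraries at 31.1, 34.8 and 35.9 CPM. The lowest control library was thus far above the highest SNT library. The log2 change was -2.84 ± 0.19 (SE, n = 3 per side, edgeR adjusted p = 2.02e-15). Summed immune cell markers were near 0 on both sides, at 0 to 4.77 CPM in control and 9.77 to 14.4 CPM in SNT libraries, with Ptprc, Itgam and Tyrobp at 0 in all 6 and 2 of 3 tested markers higher.

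In day-3 cells Rgs10 had a median of 228 CPM (24.2 to 808) on the control side and 33.7 CPM (0 to 528) on the SNT side. Of the 41 SNT cells, 18 lay below every control cell, and 6 of 18 control cells lay above every SNT cell. At day 7 the medians were 70.4 CPM (0 to 575) and 3.91 CPM (0 to 121), and 11 of 33 SNT cells but 1 of 14 control cells had no count. The ratio of mean CPM + 1 was -2.18 at day 3 and -1.64 at day 7 on the log2 scale. The highest control cell held 43.9% of the day-7 control sum, and without the highest cell of each side the ratio was -1.07. Rgs10 is on the minus strand (chr7:128373621-128418758), and its promoter window (chr7:128418123-128418422), shown because this gene fell the most, is 76.0% G and C and holds none of the letters searched.
Rgs10: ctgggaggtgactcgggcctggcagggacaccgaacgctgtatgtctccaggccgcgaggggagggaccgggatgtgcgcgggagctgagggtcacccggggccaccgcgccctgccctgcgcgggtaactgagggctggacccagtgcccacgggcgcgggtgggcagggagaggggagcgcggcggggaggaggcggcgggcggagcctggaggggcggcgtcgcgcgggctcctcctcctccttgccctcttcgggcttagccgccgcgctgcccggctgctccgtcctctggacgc

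**Figure D2:**
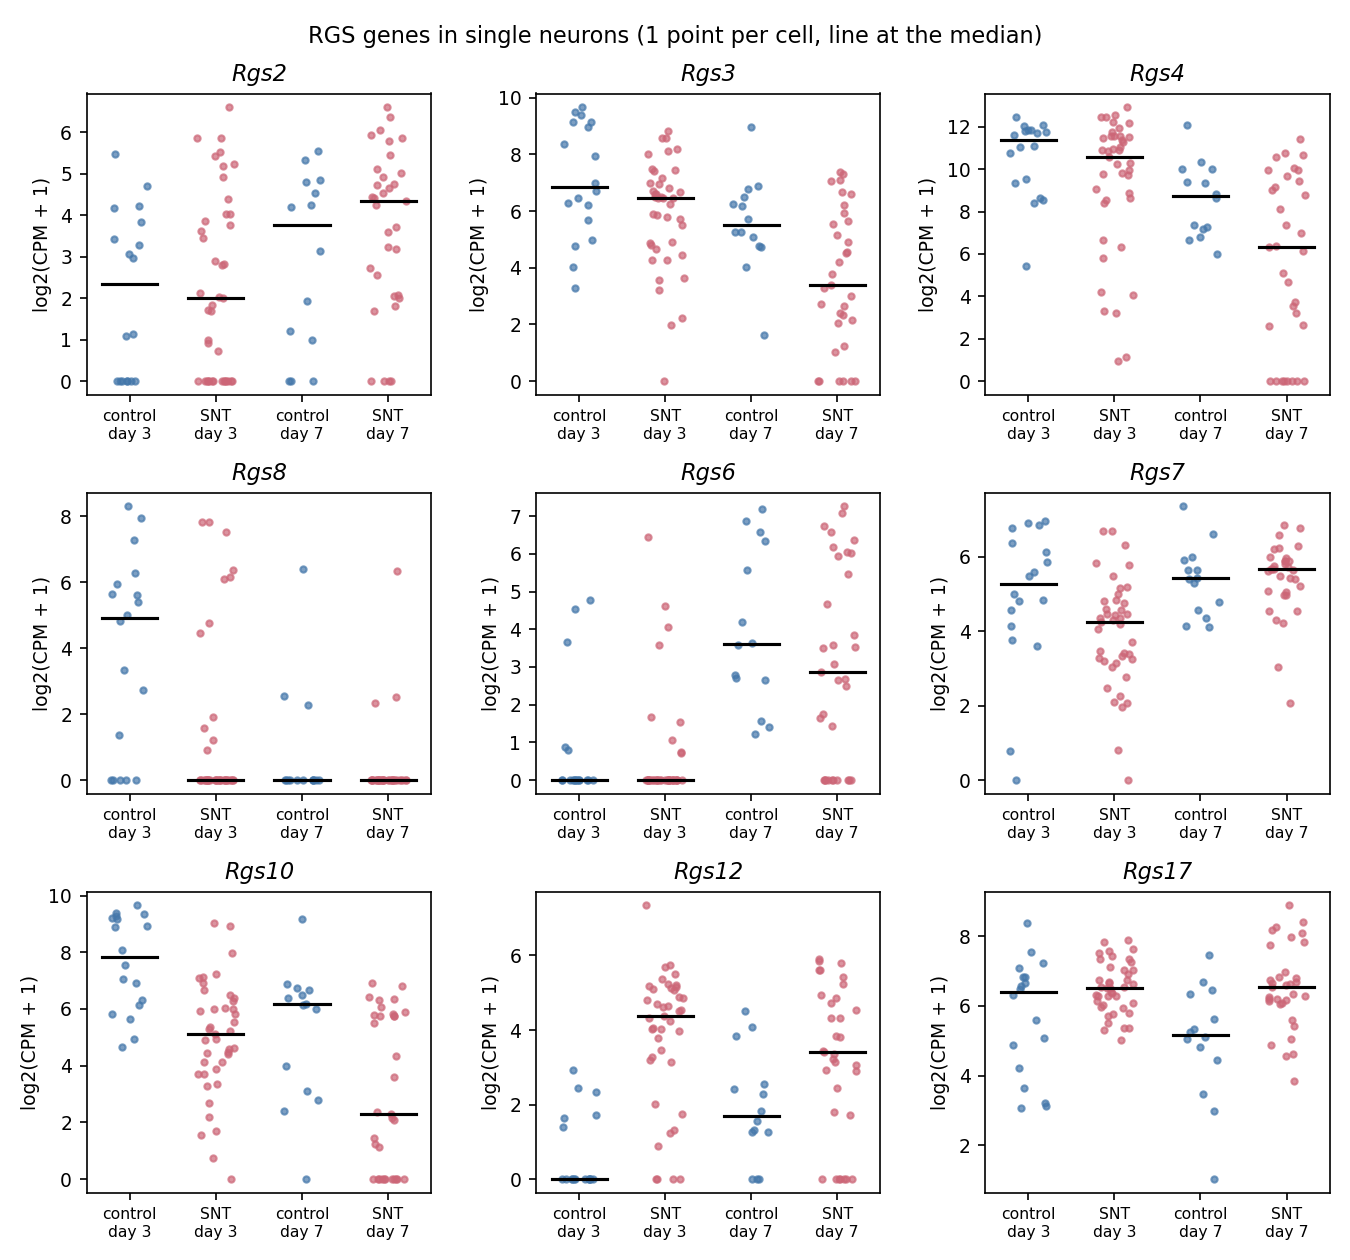
Each RGS gene in kept single neurons by side and day. The y axis is log2(CPM + 1), each point is 1 cell (18 control and 41 SNT cells at day 3, 14 control and 33 SNT cells at day 7) and black lines are medians. The Rgs12 median is higher and the Rgs10 median lower on the SNT side at both days, while Rgs17 has counts in every cell.

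The R4 genes encode small GTPase-accelerating proteins, and 2 of the 4 fell in pooled neurons. Rgs3 acts on Gi and Gq subunits and also binds G beta gamma. It stood at 215, 212 and 209 CPM in control and 47.8, 36.6 and 39.9 CPM in SNT libraries 1, 2 and 3, with no overlap. The log2 change was -2.19 ± 0.19 (SE, edgeR adjusted p = 4.11e-12). In day-3 cells its mean was 278 ± 282 CPM (SD over 18 cells) on the control side and 109 ± 112 CPM (SD over 41 cells) on the SNT side, a log2 ratio of -1.35. The medians, 115 and 87.0 CPM, were closer, with a log2 ratio of -0.39, and 6 of 18 control cells were above every SNT cell. At day 7 the medians were 44.7 CPM in control and 9.37 CPM in SNT cells. There the log2 ratio of means was -1.20 and fell short of 2-fold, at -0.69, without the highest cell of each side. The highest control cell, at 506 CPM, held 42.2% of the control sum. The same cell was the highest day-7 control cell for Rgs4, Rgs8 and Rgs10. It held 1588 CPM of Mrgprd, a receptor of nonpeptidergic nociceptors, and no other day-7 cell had a count of Mrgprd.

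Rgs4, a brake on Gi/o and Gq signals that is known for opposing opioid receptor signalling, was the most abundant of the 9 per length. Control libraries stood at 3061, 2498 and 2684 CPM and SNT libraries at 1203, 1078 and 986 CPM. These did not overlap, and the log2 change was -1.18 ± 0.11 (SE, edgeR adjusted p = 8.83e-11). Single cells spread much more widely, from 41.7 to 5719 CPM (median 2692) in day-3 control and from 0.957 to 7790 CPM (median 1529) in day-3 SNT cells. The log2 ratio of means was -0.28 at day 3, with 6 SNT cells below and 2 above all control cells. At day 7 the ratio of means was -0.76 and that of medians -2.40, with medians of 428 CPM in control and 80.2 CPM in SNT cells. None of 14 control cells but 8 of 33 SNT cells had no Rgs4 count at day 7, and 15 SNT cells lay below every control cell. The window before the Rgs4 start (chr1:169747593-169747892, minus strand, GRCm38.p6) is shown as that of the gene with the highest level per length. It holds TGACG from 236 and CGTCA from 141 bases before the start, in capitals.
Rgs4: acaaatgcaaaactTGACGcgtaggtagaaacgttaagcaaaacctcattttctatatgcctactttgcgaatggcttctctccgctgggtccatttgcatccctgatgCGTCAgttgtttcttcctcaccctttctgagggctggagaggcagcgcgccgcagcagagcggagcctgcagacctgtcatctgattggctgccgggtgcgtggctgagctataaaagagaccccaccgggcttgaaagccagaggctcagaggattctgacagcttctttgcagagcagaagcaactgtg

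Rgs8, known for speeding the gating of G protein-coupled potassium channels, and Rgs2, a regulator selective for Gq, were low and did not pass. Rgs8 stood at 30.3, 56.0 and 14.2 CPM in control and 14.3, 20.9 and 15 CPM in SNT libraries, which overlap (log2 change -0.92, edgeR adjusted p = 0.0673). Rgs2 stood at 20.6, 19.1 and 5.32 CPM in control and 7.2, 5.22 and 4.99 CPM in SNT libraries, which also overlap (log2 change -1.24, edgeR adjusted p = 0.0919). The third control library, the shallowest, was the lowest control library for both. Without it both passed, at log2 changes of -1.24 (Rgs8, edgeR adjusted p = 0.0124) and -1.60 (Rgs2, edgeR adjusted p = 0.0288). Without control library 2, the highest for Rgs8, its log2 change was -0.31 (edgeR adjusted p = 0.665). Rgs8 also passed with library size as the only scaling (-1.07), a setting that moved the median of all genes from 0.02 to -0.14.

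At day 3 Rgs8 exceeded 10 CPM in 10 of 18 control cells (55.6%, exact interval 30.8 to 78.5) and 8 of 41 SNT cells (19.5%, 8.82 to 34.9), with medians of 29.1 and 0 CPM and a log2 ratio of means of -1.37. At day 7 only 1 of 14 control and 1 of 33 SNT cells exceeded 10 CPM. An antisense gene, Gm29529, overlaps Rgs8 exons, with the same limit as for Rgs12. Rgs2 had means of 8.39 CPM in control and 13 CPM in SNT cells at day 3 and 15 and 24 CPM at day 7. Its log2 ratios were 0.58 and 0.65, opposite in sign to the pooled difference, which did not pass. At day 3 the median ran the other way (4.03 CPM in control, 3.02 CPM in SNT cells).

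Rgs6 and Rgs7 belong to R7, whose proteins are stable only when bound to the beta subunit Gnb5 and are brought to membranes by Rgs7bp or the receptor-like Gpr158. Rgs7 stood at 50.9, 51.2 and 44.4 CPM in control and 7.2, 15.7 and 11 CPM in SNT libraries, without overlap. It fell by 1.99 on the log2 scale (SE 0.34, edgeR adjusted p = 1.54e-05). In day-3 cells the medians were 37.4 CPM (0 to 123) in control and 18.0 CPM (0 to 103) in SNT cells, with 4 control cells above every SNT cell and a log2 ratio of means of -1.09. That ratio was -0.99, just short of 2-fold, with the 11 outlier cells included, and -0.87 with 10 CPM added in place of 1. At day 7 the mean levels were 50.3 ± 39.3 CPM (SD over 14 cells) in control and 49.3 ± 25.8 CPM (SD over 33 cells) in SNT cells, a log2 ratio of -0.03.

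Rgs6 was near the lower end of what the pooled libraries show, at 4.13, 17.9 and 7.1 CPM in control and 4.78, 6.96 and 2.99 CPM in SNT libraries, from 3 to 15 counts each, and the sides overlap (log2 change -0.91, 95% interval -2.20 to 0.38, edgeR adjusted p = 0.347). The change was -0.06 without control library 2 and -2.14 with all libraries thinned to the smallest, and passed in neither. At day 3 it had no count in 13 of 18 control and 32 of 41 SNT cells. At day 7 it exceeded 10 CPM in 8 of 14 control and 15 of 33 SNT cells, with no count in 10 SNT cells and in no control cell. The day-7 cells differ from those of day 3 in strain and in marker levels of neuron classes, among others. Gm29530, antisense, overlaps Rgs6 exons. Of 5 R7 partner genes, 4 could be tested and 1 rose, Gpr158, from 61.9, 58.4 and 58.6 CPM in control to 291, 275 and 263 CPM in SNT libraries (log2 change 2.37, edgeR adjusted p = 6.94e-14). Among all genes tested 8.83% rose. Gnb5 and Rgs7bp, named as the known binding partners after their values were seen, had log2 changes of 0.22 and -0.54. Rgs7bp had an edgeR adjusted p of 0.00504 but was short of the limit on the change. In day-3 cells it was more than 2-fold lower on the SNT side. The 3 R7 partner genes that averaged 5 CPM or more in cells included none more than 2-fold higher at either day.

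Rgs17, of the RZ subfamily, acts on Gz and Gi and is known for binding the mu-opioid receptor. It stood at 118, 70.3 and 110 CPM in control and 78.3, 80.1 and 63.4 CPM in SNT libraries. These overlap, and the log2 change was -0.26 (95% interval -0.68 to 0.15, edgeR adjusted p = 0.41). Among cells it was above 10 CPM in all 41 SNT and 15 of 18 control cells at day 3 and in all 33 SNT and 11 of 14 control cells at day 7. At day 3 its range was narrower on the SNT side, 31.4 to 235 CPM (median 90.5) against 7.37 to 334 CPM (median 84.0). At day 7 the medians were 35.2 CPM in control and 91.9 CPM in SNT cells, 8 SNT cells lay above every control cell, and the log2 ratio of means was 1.33. That ratio was 2.25 in cells of female mice and 0.24 in cells of male mice, from 7 control cells of each sex. One control cell labelled female lacked the transcripts of that label, and without it the female ratio was 2.09. The highest SNT cell, a female one at 474 CPM, had Atf3 at 874 CPM. Cells of the sexes were not matched for Atf3 or neuron class, so sex cannot be told apart from these. The Rgs17 window (chr10:5922351-5922650, minus strand, GRCm38.p6) is shown as the other with AP-1 letters, TGACTCA from 122 bases before the start.
Rgs17: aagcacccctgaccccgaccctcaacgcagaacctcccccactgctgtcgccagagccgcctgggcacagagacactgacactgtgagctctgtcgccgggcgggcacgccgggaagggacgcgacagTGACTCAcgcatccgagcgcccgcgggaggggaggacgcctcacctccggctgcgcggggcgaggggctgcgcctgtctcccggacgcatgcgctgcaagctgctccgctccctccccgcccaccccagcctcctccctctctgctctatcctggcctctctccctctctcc

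Set against the rest of the genes, 1 RGS gene (Rgs12) was more than 2-fold higher and 4 (Rgs3, Rgs7, Rgs8 and Rgs10) more than 2-fold lower in day-3 SNT cells, where 10888 genes averaged 5 CPM or more over both sides, 5.59% of them higher and 5.80% lower. Rgs6 was under that limit at day 3. At day 7, Rgs12 and Rgs17 were more than 2-fold higher and Rgs3 and Rgs10 more than 2-fold lower, against 4.30% higher and 3.1% lower of 10733 genes, and Rgs8 was under the limit. These are ratios between single samples, with no test. Markers of blood cells also differed between the sides. All 3 neutrophil markers were higher in day-3 SNT cells, where their sum had a median of 0 and reached 4036 CPM, and all were at 0 in control cells of that day. At day 7 their sum reached 697 CPM in SNT and 0.982 CPM in control cells, with medians of 0, and 2 of the 3 were past the limit and higher. Of 5 erythrocyte markers, 3 were past the limit at day 7 and higher in SNT cells, with sums up to 4670 CPM (median 5.83) against up to 33.1 CPM (median 9.70) in control cells. Without the SNT cells whose summed markers of both kinds exceeded 100 CPM, 1 at day 3 and 2 at day 7, a limit chosen after seeing the data, the same genes were past 2-fold, with Rgs12 at 3.5 and 1.67, Rgs10 at -2.19 and -1.68 and Rgs3 at -1.35 and -1.29. Rgs12, Rgs3 and Rgs10 were past 2-fold in the same direction in the pooled neurons and at both days of cells. The share of all genes that did so was not counted. Rgs3 fell short of 2-fold in day-3 cells by medians (-0.39) and in day-7 cells without the highest cell of each side (-0.69). With 10 CPM added in place of 1, Rgs12 fell short in day-7 cells (0.87). Pooled and day-3 cells come from the same kind of mice, and no test compared them.

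**Figure D3:**
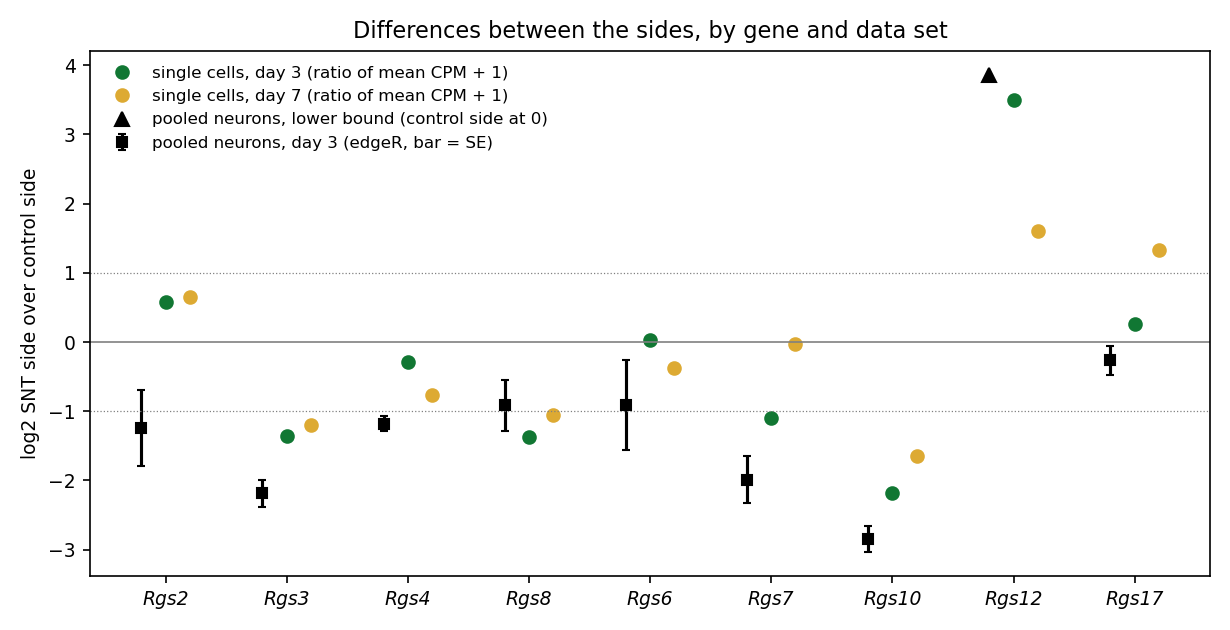
Log2 difference between SNT and control side for each RGS gene. Black squares are pooled neurons with the SE of the edgeR fit, the black triangle is the lower bound for Rgs12, and green and yellow circles are ratios of mean CPM + 1 in day-3 and day-7 cells. Dotted lines mark a 2-fold difference. Rgs3 and Rgs10 lie below the lower line and Rgs12 above the upper line in all 3 data sets, and Rgs7 is at -0.03 by day 7. The share of all genes past 2-fold in all 3 was not counted, and the ratios in cells carry no test.

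Per kilobase of the median coding transcript (GENCODE M21), Rgs4 led on the control side of the pooled neurons at 996 ± 104 CPM per kb (SD, n = 3), above Rgs10 at 482 ± 64.5, and their libraries did not overlap. Rgs3 followed at 86.8 ± 1.04 CPM per kb. Rgs8 (43.8 ± 27.6), Rgs7 (34.4 ± 2.73) and Rgs17 (20.4 ± 5.26) came next, and neighbours among these overlap or trade places when the length of all exons is used. Rgs2 (8.32 ± 4.67) and Rgs6 (6.56 ± 4.89) were lowest of those with counts and overlap each other, and Rgs8 came below Rgs2 when the length of all exons was used. On the SNT side Rgs4 stood at 395 ± 39.6 and Rgs10 at 60.2 ± 4.50 CPM per kb, with Rgs12 at 7.6 ± 3.95.

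Across cells, RGS genes varied with each other and with markers of neuron classes. All of the following are Spearman correlations of log2(CPM + 1), given as a description. Cells share a pool, a side and a depth, and no p is given. Rgs3 and Rgs4 went together in SNT cells at day 3 (rho 0.79, 41 cells), in control cells at day 3 (0.65, 18 cells) and in SNT cells at day 7 (0.78, 33 cells), with a lower value in control cells at day 7 (0.33, 14 cells). For Rgs10 and Rgs12 the values were -0.42 in SNT and 0.38 in control cells at day 3 and -0.78 in SNT and -0.46 in control cells at day 7. For Rgs7 and Rgs12 they were -0.71 and 0.24 at day 3 and 0.12 and 0.30 at day 7, in the same order, so neither pair kept its sign over all 4 groups of cells. The SNT cells of both days hold 2 ranges of Atf3.

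In day-3 control cells, Rgs3, Rgs4 and Rgs10 were higher in cells with more Mrgprd, a receptor of nonpeptidergic nociceptors (rho 0.79, 0.71 and 0.63). The control cells highest in Rgs10, at 808 and 663 CPM, were also highest in Rgs8, at 316 and 246 CPM. They held 1.19 and 0 CPM of Mrgprd and 4804 and 4165 CPM of Th, a marker of C-fibre low-threshold mechanoreceptors. Th reached at most 32.3 CPM in day-3 SNT cells. The control cell highest in Rgs4, at 5719 CPM, held 13.4 CPM of Mrgprd. Rgs8 and Rgs10 were lower in cells with more Nefh, the heavy neurofilament of large myelinated neurons (-0.90 and -0.81), and Rgs4 likewise (-0.62). Rgs6 had a rho of 0.88 with Nefh in the 14 control cells of day 7. Markers of neuron classes also moved between the pooled sides. In SNT libraries 4 of 5 nonpeptidergic markers were lower (sum 2654 to 2743 CPM in control, 550 to 621 CPM in SNT). Of the markers of large myelinated neurons 2 of 5 were higher (663 to 735 and 920 to 1002 CPM). Of the peptidergic markers 2 of 4 were lower (1788 to 2190 CPM in control, 935 to 1097 CPM in SNT). Of the C-fibre low-threshold mechanoreceptor markers 3 of 3 were lower (389 to 533 and 65.8 to 121 CPM). None of these markers was at 0 in all libraries of a side. Mrgprd and Slc17a8 were at 0 in SNT library 3, and Tac1 in SNT libraries 1 and 2. The part of these class markers in the pooled RGS differences was not tested. In the 18 control cells of day 3 the summed glial markers ran opposite to Rgs3 (rho -0.77) and Rgs4 (-0.76), and their part in these values was not tested.

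Atf3 split the SNT cells of day 3 into 11 cells at 0.65 to 23 CPM and 30 cells at 951 to 4436 CPM, with none between, and those of day 7 into 21 cells at 0 to 13.9 CPM and 12 at 704 to 1778 CPM. Because the cells fall into separate ranges, no correlation over all of them is given. Levels of Rgs12 and Rgs8 differed between the ranges at day 3. Rgs12 exceeded 10 CPM in most cells of the upper range and in few of the lower range. All day-3 SNT cells with Rgs8 above 10 CPM lay in the lower range. At day 7 both ranges held cells with Rgs12 above 10 CPM. These differences between ranges were not tested, and the rho values that follow hold within a range only. Within the 30 day-3 cells of the upper range, Rgs12 and Rgs10 had rho values with Atf3 of 0.09 and -0.05, while Rgs3 had 0.57 and Rgs4 0.43. Within the 12 such cells of day 7 the values for Rgs12 and Rgs10 were 0.03 and -0.09, and those for Rgs3 and Rgs4 were -0.06 and -0.02. Within the 11 day-3 cells of the lower range, Rgs12, Rgs10, Rgs3 and Rgs4 had values of -0.21, 0.46, 0.59 and 0.35. Within the 21 day-7 cells of that range they had 0.68, -0.69, -0.67 and -0.74, at Atf3 levels of at most 13.9 CPM.

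**Figure D4:**
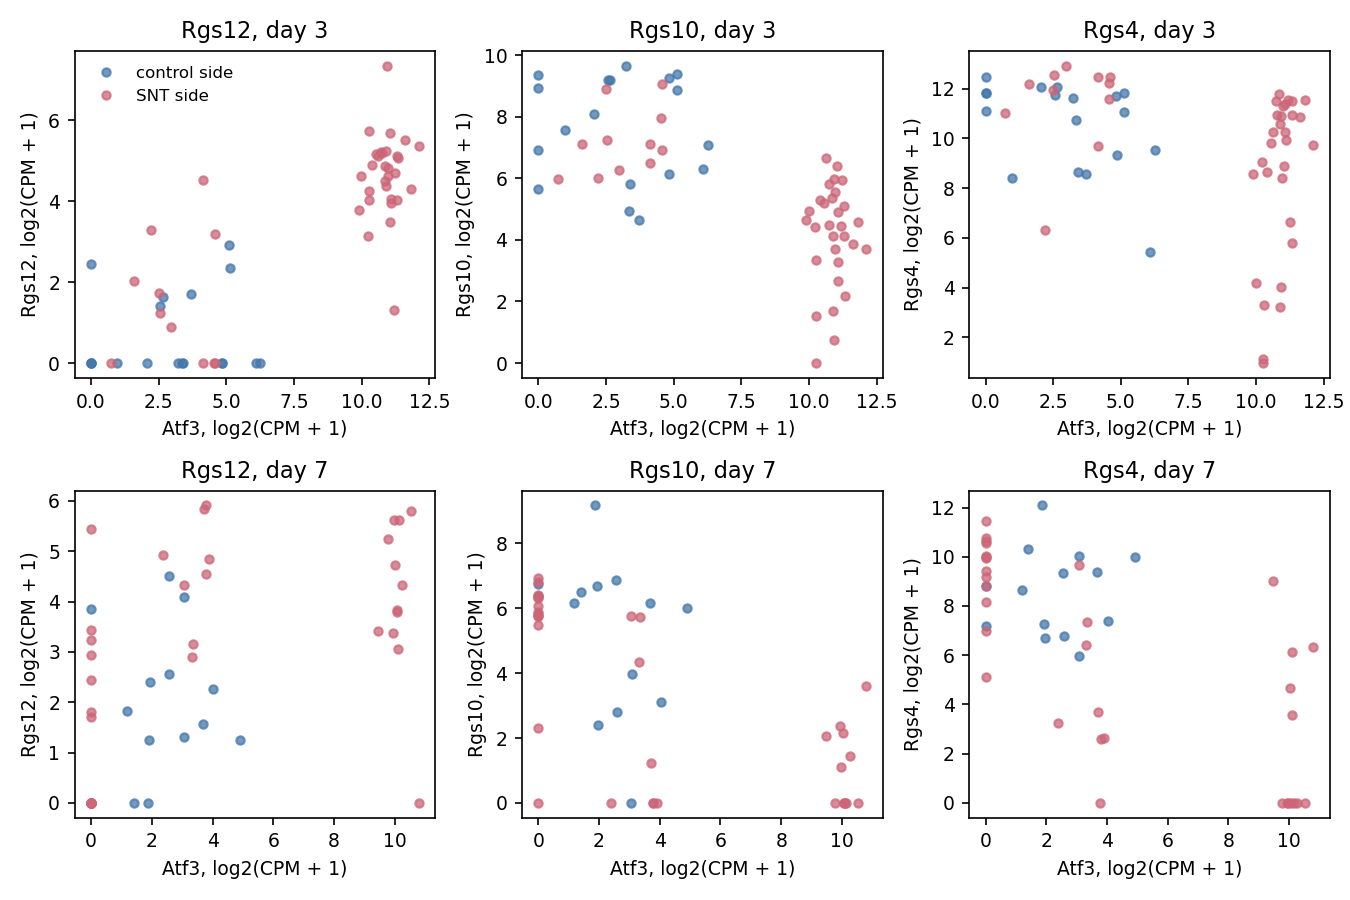
Rgs12, Rgs10 and Rgs4 (y axes) against Atf3 (x axes) in kept cells, all as log2(CPM + 1), with day 3 above and day 7 below. Each point is 1 cell, blue for control and red for SNT. SNT cells form a low and a high Atf3 range at both days (11 and 30 cells at day 3, 21 and 12 at day 7), and control cells lie below the high range.

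For each RGS gene above 10 CPM in at least 15 of the 59 day-3 cells, the genes most like it were sought among 10694 genes. The 59 cells hold both sides, so a difference between sides enters each value. Rgs3 was most like Gna14, a G alpha subunit of the Gq class (rho 0.89), Plcb3, the phospholipase C that Gq activates (0.87), and Pkia (0.87), with 0.37, 0.76 and 0.61 over the 47 day-7 cells. Rgs4 was most like Syt5, Acpp, which marks nonpeptidergic nociceptors, and Moxd1 (0.87, 0.86 and 0.86, and 0.56, 0.46 and 0.35 at day 7). Rgs8 was most like Mrgpra4, Mrgpra3 and Mrgpra6, a cluster of related receptors (0.87, 0.87 and 0.85), whose near-identical copies can share reads, with 0.04, 0.26 and 0.39 at day 7. Rgs10 was most like Prkce, Tln2 and Mcu (0.81, 0.80 and 0.80), values that were 0.68, 0.76 and 0.74 at day 7.

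Rgs12 was most like Lmo7, Hid1 and Apba2 (0.81, 0.79 and 0.79), with 0.39, -0.11 and 0.49 at day 7. Rgs7 was most like Calcb, a calcitonin gene-related peptide gene, Chrna6 and Prkar2b (0.74, 0.72 and 0.72), with -0.02, 0.24 and -0.07 at day 7. Rgs2 was most like Strbp, Cbfb and Eno2 (0.70, 0.66 and 0.64), with 0.71, 0.39 and 0.69 at day 7. Rgs17 had the weakest neighbours, Mical1, Med10 and Ifit2 (0.60, 0.59 and 0.58), with 0.26, 0.14 and 0.13 at day 7. Rgs6 was above 10 CPM in too few cells.

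Of the 12 other RGS genes in the tables, 7 passed the limit on low values in pooled neurons. Of these 7, 2 rose and 1 fell, beside 8.83% higher and 7.1% lower of all genes tested. Rgs5, an R4 gene known from pericytes, rose from 22, 8.34 and 17.7 CPM in control to 70.5, 49.6 and 54.4 CPM in SNT libraries (log2 change 2.05, edgeR adjusted p = 3.89e-06). Its log2 ratio was -0.55 in day-3 cells and 4.38 in day-7 cells, where it exceeded 10 CPM in 2 of 33 SNT and 0 of 14 control cells and 1 SNT cell held 98.7% of the SNT sum. Summed markers of vascular cells lay between 33.7 and 46.7 CPM in control and 7.2 and 14.8 CPM in SNT pooled libraries, with Cldn5, Cdh5 and Kcnj8 at 0 in all control and Kcnj8 at 0 in all SNT libraries, 1 of 4 tested markers higher and 1 lower. Rgs9, an R7 gene, had no count in control and 2.39, 6.96 and 2.49 CPM in SNT libraries, at least 2.80-fold higher. Rgs14, the remaining R12 gene, stood at 17.9, 5.96 and 7.1 CPM in control and 0.598, 0 and 0 CPM in SNT libraries (log2 change -4.91, edgeR adjusted p = 7.19e-04). Rgs11 (1.09), Rgs16 (-1.09), Rgs19 (0.31) and Rgs20 (1.09) did not pass. Rgs11, Rgs16 and Rgs20 overlap genes of the opposite strand. In day-3 cells Rgs20, an RZ gene like Rgs17, exceeded 10 CPM in 27 of 41 SNT and 2 of 18 control cells, a log2 ratio of means of 2.41.

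Genes for partners of RGS proteins were called in both directions in pooled neurons, where 8.83% of all genes tested were higher and 7.1% lower. Whether the lists differ from these shares was not tested. Of 12 G alpha genes tested none rose and 2 fell, Gnao1, the Go subunit that is a main substrate of R4 and R7 proteins (log2 change -1.32), and Gnaq, the Gq subunit (-1.53). Of 13 beta and gamma genes, Gng4 rose (4.4) and Gnb4 (-1.69) and Gng12 (-1.06) fell. Of 13 other regulators 3 rose and 3 fell, the largest being the fall of the receptor kinase gene Adrbk2 (-2.76), the rise of Gpsm1, whose protein holds G alpha in its GDP form (2.37), the rise of Arrb1, an arrestin (1.96), and the fall of Gpsm2 (-1.77). Of 12 effectors 3 rose and 2 fell, among them the adenylyl cyclases Adcy2 (2.80) and Adcy3 (2.16), Plcb4 (1.93) and Plcb3 (-2.54). Plcb3 stood at 589, 595 and 721 CPM in control and 98.0, 94.0 and 100.3 CPM in SNT libraries.

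Of 16 Gi/o-coupled receptor genes tested 4 rose and 5 fell, beside 8.83% higher and 7.1% lower of all genes tested. Npy1r and Npy2r, receptors for neuropeptide Y, rose by 4.58 and 3.95, Galr1, a galanin receptor, rose by 2.88, and Htr1b, a serotonin receptor with no count in control, was at least 4.90-fold higher. In day-3 cells Htr1b was lower on the SNT side, at a mean of 4.80 against 13.7 CPM (log2 ratio -1.34). The 5 that fell were Chrm2 (-2.72), Cnr1 (-1.93), Adora1 (-1.79), Oprl1 (-1.39) and Gabbr2 (-1.10). In SNT cells Adora1, Gabbr2 and Oprl1 were more than 2-fold lower at day 3 and Chrm2 and Oprl1 at day 7. Cnr1 was more than 2-fold higher in day-7 SNT cells, opposite in sign to its pooled fall. Npy1r and Npy2r were more than 2-fold higher in SNT cells at both days. List medians were 1.09 for other RGS genes, -0.55 for G alpha, -0.18 for beta and gamma, 0.27 for other regulators, 0.34 for effectors and -0.63 for Gi/o receptors, beside 0.02 for all genes. Gpr158, Gnb5, Gnao1, Gng12, Gpsm1, Gpsm2, Adcy2, Adcy3, Plcb3, Adora1, Chrm2 and Htr1b overlap exons of genes on the opposite strand.

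**Figure D5:**
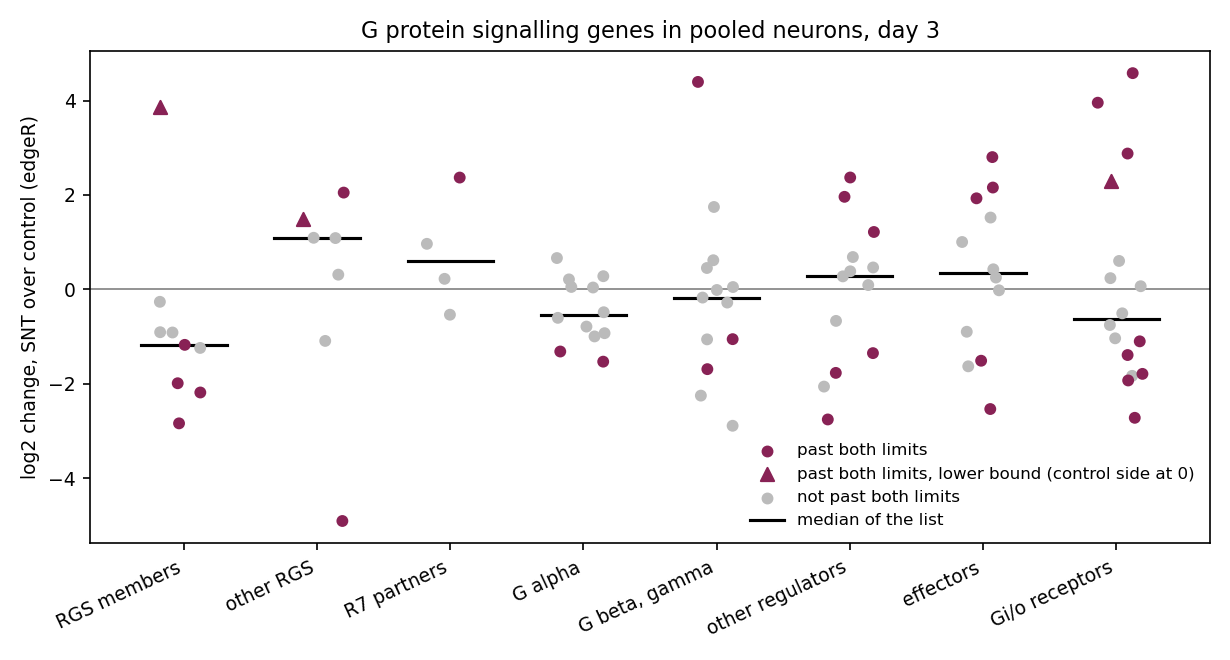
Log2 change (SNT over control, y axis) of each tested gene of 8 lists of G protein signalling genes in pooled neurons of day 3. Purple points passed both limits (adjusted p below 0.05 and log2 change beyond 1) and grey points did not. Triangles are lower bounds for genes at 0 on the control side. Black lines are list medians, lowest for the 9 RGS genes at -1.18 and 1.09 for other RGS genes. The 9 genes were chosen with earlier results of these data known, so their median does not speak for the whole family.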

How the data were processed

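Single neurons and pooled neurons were profiled with Smart-seq2, which carries no molecular identifiers, so amplified copies were counted as separate reads. Per the labels, base calls were made with CASAVA 1.8.2 and the authors aligned reads with Bowtie2 to mm9 and estimated expression with RSEM. The deposited tables are named TPM, but their columns sum to between 223967 and 2003817, and numbers that are whole exactly as written, with no tolerance, make up 60.7% to 93.6% of the nonzero values of each, so the deposited values were treated like expected counts. The design allowed for this. Expected counts were rounded, which changed pooled totals by at most 0.00757%. Columns were matched to samples by name.

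Pooled libraries were tested with edgeR 4.0.16 (R 4.3.3) with TMM factors, a limit of 1 CPM on the mean over the 6 libraries and a prior count of 0.125. Libraries of a side differed by a chi-square of 2.60 to 4.20 per gene, more than counting noise. On simulated counts with the spread of these libraries, 43.0% of 2-fold and 82.0% of 4-fold changes had an edgeR adjusted p below 0.05. The limit on the log2 change was not applied there, so these are not shares called by the full rule. Alternatives used limma 3.58.1 and DESeq2 1.42.0. Cells were summarised in Python 3.11.15 with pandas 2.3.3 and scipy 1.17.1, as ratios of mean CPM + 1 with no test. Like genes had to exceed 10 CPM in at least 10 cells, and the 3 with the highest rho are named. From each list of G protein signalling genes the changed ones are named, at most the 4 with the largest change, besides every other RGS gene tested. The receptors that fell are named beyond that rule, after their values were seen. Promoter windows are from RefSeq (GRCm38.p6), where all 9 genes matched, and gene models from GENCODE M21. The files' own coordinates, on mm9, were not used. The members and lists were chosen with earlier results of these data known.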

Additional observations from a re-analysis of the deposited data

How the results depend on the processing

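All 46 alternatives to the counts of changed genes stayed within 1.5 times the values reported. In pooled neurons 5 of the 9 RGS genes changed, and 5 to 7 did when each library was left out in turn (1884 to 2148 genes in all). The higher number came without control replicate 3, which added Rgs2 and Rgs8. Library size as the only scaling gave 6 and turned the split of all genes from 1193 higher and 961 lower to 978 higher and 1265 lower. With a replicate block for the library number, 5 RGS genes changed and 2008 genes in all, against 2154 without it. The numbers do not pair the libraries, since deviations of same-numbered libraries correlated at 0.13, 0.0023 and -0.03. No RGS gene changed sign in the pooled neurons under any of these settings. Rgs12 kept its call in all 15, and its fitted log2 change ran from 3.62 to 7.95 because the control side held no count.

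In cells the number past 2-fold (5 at day 3, 4 at day 7) stayed within 1.5 times under medians, another pseudocount, thinning and outliers. The same held with the highest cells or cells with blood markers left out, or with 1 sex only. That rule covers the number, not which genes were past 2-fold. By medians Rgs3 dropped out at day 3 (-0.39) and Rgs4 came in at day 7 (-2.40). Without the highest cells Rgs3 dropped out at day 7 (-0.69). The ratio of Rgs12 was 1.59 at day 3 and 0.87 at day 7 with 10 CPM added, and that of Rgs8 at day 3 was -4.91 by medians. Rgs8 at day 7 rests on 1 cell per side and was 1.87 in cells of female mice and -3.40 in cells of male mice. The setting without the control cell that goes against its sex label was chosen after seeing the data. With 3 libraries of 1 lysate per side and no animal in the labels, none of these values carries the spread between mice.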
